A study of Caenorhabditis elegans with 2 samples.

Results

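The genes described here encode 44 enzymes and enzyme subunits of glycolysis, the pyruvate dehydrogenase complex, the tricarboxylic acid (TCA) cycle and gluconeogenesis in Caenorhabditis elegans. They were chosen by name and not by a cut on their values, although earlier results of these data were known. All 44 were matched to a gene model, and they stand among 19973 protein-coding genes of the nuclear chromosomes. By known location, 23 are cytosolic enzymes and 18 are mitochondrial. The phosphoenolpyruvate carboxykinase genes pck-1 and pck-2 and the glyoxylate cycle gene icl-1 were assigned to neither class. The study located the Krüppel-like factor KLF-2 on chromatin by ChIP-seq in whole mid-stage embryos with a stated age of 1.5 hours. Per its label, strain RW12310 carries a CRISPR insertion that tags klf-2 with TY1, EGFP and 3xFLAG. The label puts this allele on chromosome II, whereas the annotation has klf-2 on V, and the site of the insertion was not settled here. Embryos were freed by bleaching. The sample description names an antibody against GFP for the recovery of sonicated chromatin, while the antibody field reads klf-2. There was 1 group of 2 biological replicates, with no second condition or genotype. Every value is an average over all cells of the embryo, and a peak shows where the tagged protein was recovered and not whether the gene was transcribed.

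Glycolysis splits glucose into pyruvate in the cytosol, and the pyruvate dehydrogenase complex turns pyruvate into acetyl-CoA inside the mitochondrion. The TCA cycle then oxidises acetyl-CoA, with isocitrate dehydrogenase and the 2-oxoglutarate dehydrogenase complex among its controlled steps. Gluconeogenesis runs much of glycolysis backwards, by way of pyruvate carboxylase, phosphoenolpyruvate carboxykinase and fructose bisphosphatase. Nematodes also have a glyoxylate cycle, through which embryos can make sugar from stored fat. Krüppel-like factors bind DNA through C-terminal zinc fingers that recognise GC-rich and CACCC-type boxes.

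Each gene was scored by its best peak, the one with the highest signal value whose summit lay between 1000 bp upstream and 500 bp downstream of any of its annotated transcript starts. The signal value comes from the authors' peak caller and was not normalized between lists, so each gene was also given its percentile among all 19973 genes of the same list, where genes with no peak share the lowest place. The ranked lists held 111583 peaks for both replicates together, 63024 for replicate 1 and 50044 for replicate 2. They reach far down into weak peaks. The conservative list, in contrast, held 1032 peaks that passed an irreproducible discovery rate (IDR) threshold of 0.01. A gene with a summit of that list in its window is called bound below, which describes the list and is not a test. The files used give no read numbers, so no counting interval can be given.

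Among the bound genes were subunits of a pair of neighbouring TCA cycle complexes, and summit sequences are shown for these and for dld-1. Those of the other bound genes, hxk-2 and pck-2, are not shown. The choice does not follow signal, as the hxk-2 peak was higher than those of ogdh-1 and dlst-1. The idhg-1 sequence lies under the highest of these peaks. The genes ogdh-1, dlst-1 and dld-1 encode the E1, E2 and E3 components of the 2-oxoglutarate dehydrogenase complex, of which dld-1 had a weaker peak outside the conservative list. Each is read from WBcel235, the assembly that ce11 stands for, 5′ to 3′ on the strand of the gene, over 101 bases centred on the summit. The idhg-1 sequence stops at 96 bases, just before the annotated transcript start. It spans chrIII:4568701-4568796 on the plus strand, and the dld-1 sequence chrIV:14464242-14464342 on the plus strand. The ogdh-1 sequence is chrIV:4702038-4702138 on the minus strand and the dlst-1 sequence chrV:6709165-6709265 on the minus strand. Capitals mark CCGCCC in idhg-1, the run of GCGCGC and a CCNCNCCC match in dlst-1, and in ogdh-1 the bases that belong to a 31-base stretch found elsewhere in the genome.
idhg-1: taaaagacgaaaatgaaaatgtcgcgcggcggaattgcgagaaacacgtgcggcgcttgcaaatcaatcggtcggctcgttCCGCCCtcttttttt
ogdh-1: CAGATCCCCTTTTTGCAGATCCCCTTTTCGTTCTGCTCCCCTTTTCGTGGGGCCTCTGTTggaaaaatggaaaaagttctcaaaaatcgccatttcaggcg
dlst-1: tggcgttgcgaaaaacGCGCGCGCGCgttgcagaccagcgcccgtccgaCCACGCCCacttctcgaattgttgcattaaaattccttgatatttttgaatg
dld-1: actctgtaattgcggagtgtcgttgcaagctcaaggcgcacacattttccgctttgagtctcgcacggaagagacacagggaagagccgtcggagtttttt
The dld-1 sequence holds none of the motifs searched and has no capitals.

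KLF-2 marked few of these genes, and the marked ones were mostly mitochondrial. Of the 44 genes, 5 (11.4%) were bound in the conservative list, against 3.05% of all protein-coding genes. They were hxk-2 for hexokinase, idhg-1 for a regulatory subunit of NAD-dependent isocitrate dehydrogenase, ogdh-1 and dlst-1 of the 2-oxoglutarate dehydrogenase complex, and pck-2 for phosphoenolpyruvate carboxykinase. By location this was 1 of 23 cytosolic genes (4.35%) and 3 of 18 mitochondrial genes (16.7%), with pck-2 in neither class. The difference rests on 4 genes and was not tested. With windows from 2000 bp upstream, gpd-4, pyk-1 and idh-1 joined them, and 4 of 23 cytosolic (17.4%) and 3 of 18 mitochondrial genes (16.7%) were bound, against 4.12% of all genes with these windows. Without peaks in repeated sequence 3 of the 44 remained (hxk-2, idhg-1 and dlst-1), against 2.14% of all genes, and the same 3 remained with 1 window at the outermost start of a gene, against 2.72% of all genes. By pathway it was 1 of 19 glycolysis genes, 0 of 4 genes of the pyruvate dehydrogenase complex, 3 of 13 mitochondrial TCA cycle genes, 0 of 3 cytosolic isozymes of TCA cycle enzymes and 1 of 5 genes of gluconeogenesis and the glyoxylate cycle.

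A wider view by rank gave more genes and the same order of the compartments. This view includes the 5 bound genes and rests on the same samples, so it is not independent of the counts above. In the ranked list of both replicates, 12 of 44 genes (27.3%) were among the 10% of protein-coding genes with the highest best signal. They were 4 of 23 cytosolic genes (17.4%), namely hxk-2, gpd-2, pgk-1 and enol-1, and 7 of 18 mitochondrial genes (38.9%), namely dlat-1, dld-1, idhg-1, ogdh-1, dlst-1, sucl-1 and mdh-2, with pck-2 as the remaining one. Without peaks in repeated sequence there were 10, with pgk-1, ogdh-1 and pck-2 lost and aco-2 gained, and with 1 window at the outermost start there were also 10, with enol-1, ogdh-1 and pck-2 lost and aco-2 gained. The signal at this limit was 55.0. The gene just inside was enol-1 with 55.5, and those just outside were aco-2 with 54.0, pyk-1 with 50.5 and idh-1 with 50.04. Replicate 1 alone placed 10 of 44 genes (22.7%) in its own top share, which holds 10% of all genes, and replicate 2 placed 11 (25%) in its own, again with 10% of all genes. In replicate 1 these were 3 cytosolic and 6 mitochondrial genes, and in replicate 2 they were 3 cytosolic and 7 mitochondrial genes.

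**Figure D1:**
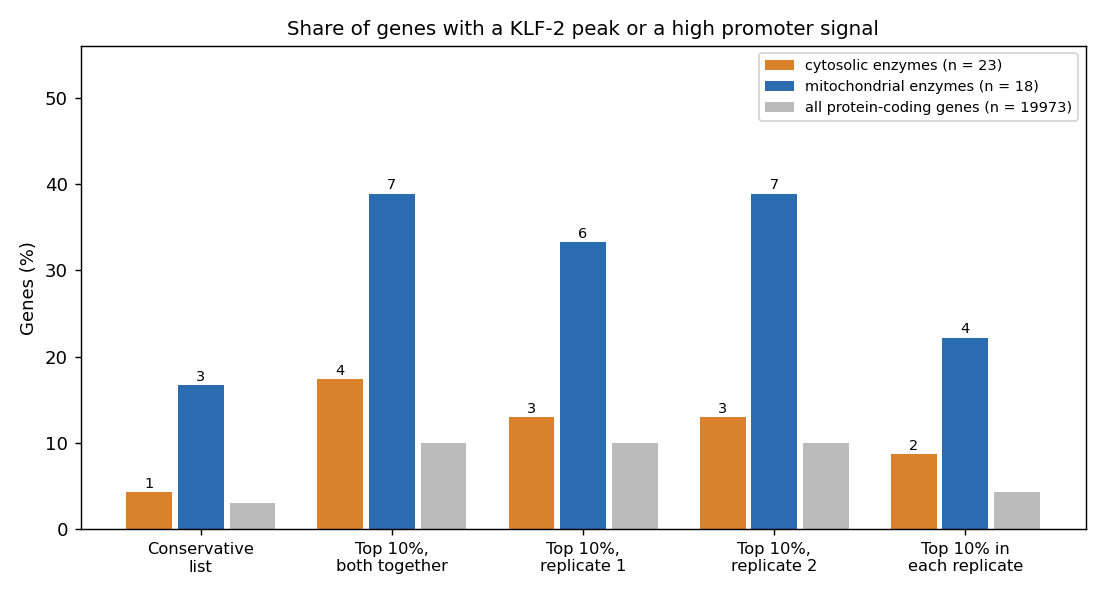
Share of genes, in percent, that had a summit in the conservative list or stood in the top 10% by best signal in a ranked list, for cytosolic enzymes (orange, left), mitochondrial enzymes (blue, middle) and all protein-coding genes (grey, right). The number of genes stands above each orange and blue bar. The mitochondrial bar is the highest in all 5 comparisons, from 16.7% in the conservative list to 38.9% in the top 10%, and the cytosolic bar lies between it and the grey one. The 5 comparisons share samples and genes, and all use windows from 1000 bp upstream. With windows from 2000 bp upstream, 4 cytosolic and 3 mitochondrial genes were bound.

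The distance between the compartments at the middle of the distribution depended on the windows and peaks used. The median percentile was 71.4 for the cytosolic genes and 74.1 for the mitochondrial genes in the list of both replicates, a difference of -2.65 points (cytosolic minus mitochondrial). It was -5.70 points in replicate 1, with 74.3 for cytosolic and 80.0 for mitochondrial genes, and -6.43 points in replicate 2, with 77.3 and 83.7 for the same classes. Within each class the genes covered nearly the whole scale, with percentiles of 11.0 to 98.5 for cytosolic genes and 11.0 to 99.9 for mitochondrial genes. The sign turned when the unassigned genes were given a class: with pck-1 and pck-2 as cytosolic and icl-1 as mitochondrial, the medians were 73.4 for cytosolic and 72.5 for mitochondrial genes, a difference of 0.90 points. Where any overlap of a peak with the window counted, the medians were 70.67 for cytosolic and 70.89 for mitochondrial genes, a difference of only -0.22 points. The difference was wider with other windows and without repeats: -11.4 points with 500 bp upstream to 100 bp downstream, -15.64 with 2000 bp upstream, -10.88 with 1 window at the outermost start and -13.08 without peaks in repeated sequence.

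All 44 genes together had a median percentile of 72.9 in the list of both replicates, 75.1 in replicate 1 and 78.3 in replicate 2, against 50 for all genes by construction. Nearly all had some peak in their window: 42 (95.5%) in the list of both replicates against 77.9% of all genes, 37 (84.1%) in replicate 1 against 61.3%, and 36 (81.8%) in replicate 2 against 54.8%. A gene with more starts has more windows in which a peak can fall. Several annotated starts were present in 18 of the 44 genes (40.9%) and in 26.3% of all genes, while the median window was 1501 bp in both. With a single window at the outermost start of each gene, which also drops peaks at internal starts, the median was 74.1 for all 44 genes, 63.7 for the cytosolic and 74.6 for the mitochondrial ones. The part of several starts in the percentiles was not tested.

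**Figure D2:**
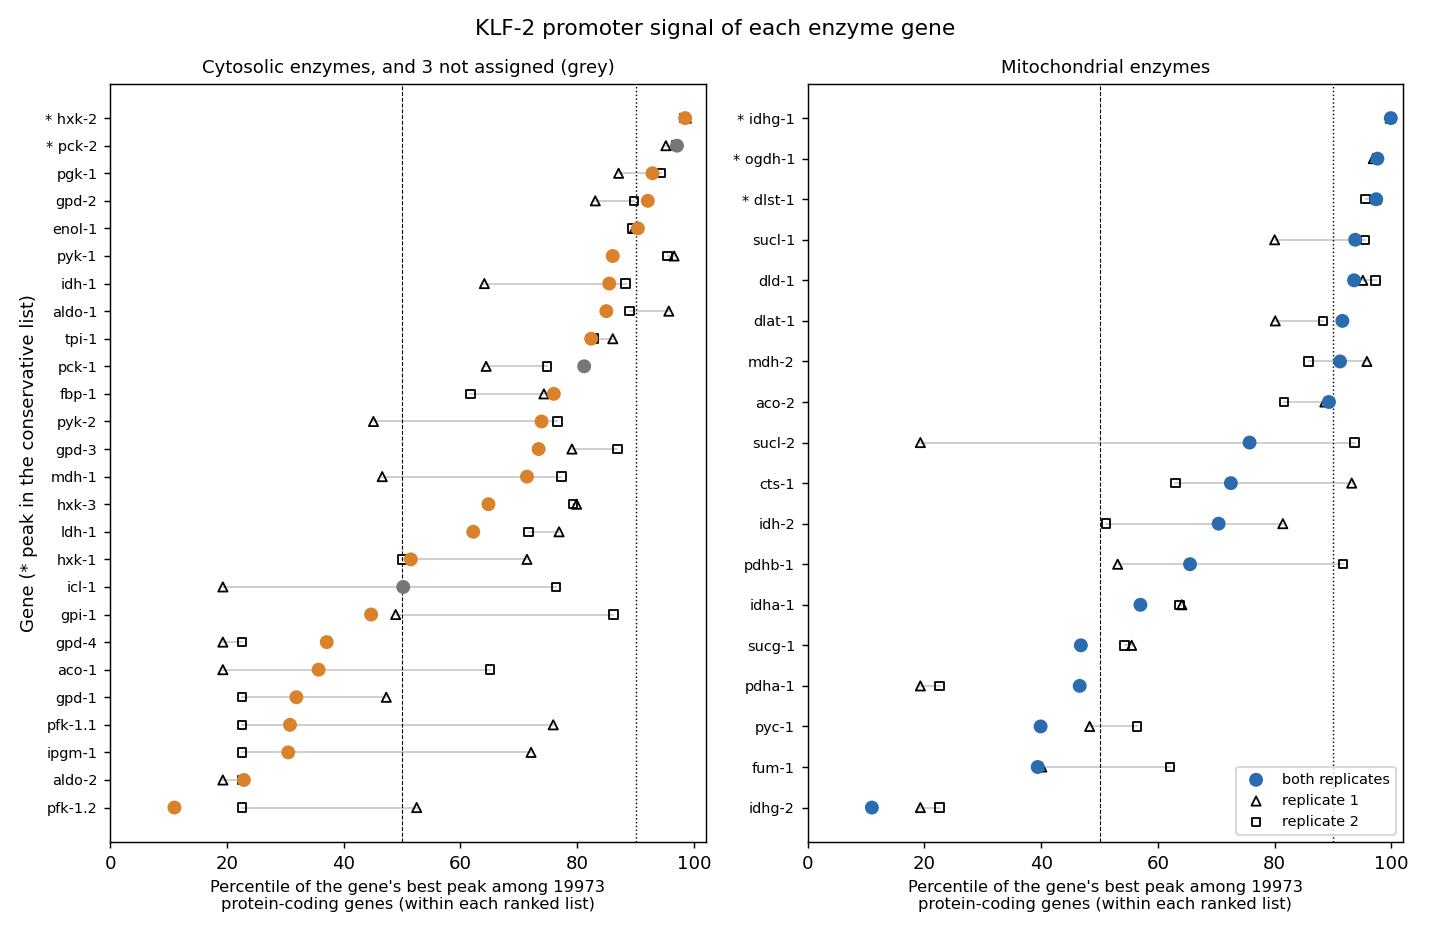
Percentile of the best peak of each of the 44 genes among all protein-coding genes, in the ranked list of both replicates (filled circles) and in those of replicate 1 (triangles) and replicate 2 (squares), with cytosolic and unassigned genes on the left and mitochondrial genes on the right. Dotted lines stand at 90 and dashed lines at 50, and asterisks mark the 5 bound genes. These 5 stay above 95 in all 3 lists, which is partly set by the agreement between replicates that the conservative list requires. Many lower genes move widely between replicates.

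The highest peak lay at idhg-1 (WBGene00009440), whose product is a regulatory gamma-type subunit of the mitochondrial NAD-dependent isocitrate dehydrogenase. Its signal was 336 in the list of both replicates, with 140 in replicate 1 and 189 in replicate 2. That is percentile 99.9, 99.8 and 99.9 in these lists, and rank 29 of the 1032 conservative peaks, whose median signal was 93.9. It was narrower than the rest of the 42 best peaks, which all had the same width. That width was shared by 99.9% of the peaks in the ranked list of both replicates, so width was not read as a property of the site. The idhg-1 peak lay on III from 4568683 to 4568835, with the summit 46 bp upstream of the start. The same summit lies 621 bp upstream of a start of mlcd-1, so it falls in the windows of both genes. Of the 44 genes, idhg-1 was the only one with a peak in the thresholded lists of each replicate taken alone: replicate 1 had 1 of the genes (2.27%) against 1.29% of all genes, and replicate 2 had 2 (4.55%), idhg-1 and dld-1, against 1.52%.

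The other subunit genes of the same enzyme among the 44, idha-1 and idhg-2, did not share this signal. The catalytic subunit gene idha-1 had a best signal of 33.3, at percentile 57.0, although CCGCCC occurs near its summit. The second gamma-type gene, idhg-2, had no peak in its window in any of the 3 ranked lists. Among the NADP-dependent isocitrate dehydrogenases, which are separate enzymes, the cytosolic idh-1 had 50.04 (percentile 85.5) and the mitochondrial idh-2 had 39.6 (percentile 70.4). Replicate 1 placed idh-1 at 64.1 and idh-2 at 81.4, and replicate 2 placed idh-1 at 88.3 and idh-2 at 51.1, so the order of that pair differed between replicates.

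At the 2-oxoglutarate dehydrogenase complex, which makes succinyl-CoA in the next step of the cycle, all 3 components stood in the top share in both replicates, where 4.39% of all genes stood. The gene for E1, ogdh-1 (WBGene00020679), had a signal of 83.6 in the list of both replicates, 43.2 in replicate 1 and 43.3 in replicate 2. Its peak lay on IV from 4701940 to 4702235, in an intron and 211 bp upstream of the gene's second start. Without peaks in repeated sequence, or with 1 window at the outermost start, ogdh-1 was neither bound nor in the top share of the joint list. Of the 31-base stretches under its peak, 47.7% occur elsewhere in the genome, and the treatment of reads with several map positions is not given in the sources used here. The gene for E2, dlst-1 (WBGene00020950), had 80.9 in the list of both replicates, 45.96 in replicate 1 and 35.6 in replicate 2. Its peak lay on V from 6709067 to 6709362, with the summit 114 bp upstream of the start and inside the annotated non-coding RNA gene W02F12.11. No stretch under that peak is repeated, and no other protein-coding gene has its window there.

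The gene for E3, dld-1 (WBGene00010794), is shared with the pyruvate dehydrogenase complex. It had 61.2 in the list of both replicates, 38.1 in replicate 1 and 41.6 in replicate 2. The peak on IV from 14464144 to 14464439 lay 225 bp upstream of the start and inside the non-coding RNA gene LLC1.120. It was not in the conservative list: its −log10 global IDR in the joint ranked list was 0.488, and the lowest among conservative peaks was 2.00. It did pass in the second thresholded list of both replicates, which held 1027 peaks and marked 4 of the 44 genes (9.09%; hxk-2, dld-1, idhg-1 and ogdh-1) against 3.05% of all genes. The best peak of replicate 1 lay elsewhere in the windows, and at the site of the joint peak replicate 1 had only 17.6. The best dld-1 peaks of the replicates thus lay at different places, at percentile 95.1 in replicate 1 and 97.3 in replicate 2.

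The rest of the pyruvate dehydrogenase complex was mixed. The gene for its E2 component, dlat-1, had a best signal of 57.5 in the list of both replicates, at percentile 91.6, with 80.1 in replicate 1 and 88.3 in replicate 2. That summit lay in a coding exon of the neighbouring gene fntb-1, 836 bp upstream of dlat-1. The genes for the E1 subunits, pdha-1 and pdhb-1, stood at percentiles 46.6 and 65.5. No peak was listed for pdha-1 in either replicate alone, and pdhb-1 was at percentile 53.1 in replicate 1 and 91.7, in the top share, in replicate 2.

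In the rest of the TCA cycle no gene was bound, and 2 stood in the top share. Succinyl-CoA ligase converts succinyl-CoA to succinate. Its alpha subunit gene sucl-1 had a signal of 61.5 (percentile 93.8), with 26.5 in replicate 1 and 35.4 in replicate 2. The paralogue sucl-2 had 42.7 (percentile 75.7), with 32.9 in replicate 2 and no peak in replicate 1, and the beta subunit gene sucg-1 had 28.4 (percentile 46.8). Mitochondrial malate dehydrogenase, mdh-2, had 56.9 (percentile 91.2), with 39.6 in replicate 1 and 26.6 in replicate 2. The joint mdh-2 summit also lay 303 bp upstream of F20H11.4. Replicate 2 had no peak within 100 bp of it, so its 26.6 belongs to another place in the window. The cytosolic isozyme gene mdh-1 had 40.1 (percentile 71.4), with 14.4 in replicate 1 and 22.8 in replicate 2.

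Aconitase, which isomerises citrate, has a mitochondrial form encoded by aco-2 and a cytosolic form encoded by aco-1. The mitochondrial gene aco-2 had 54.0 in the list of both replicates (percentile 89.3), just below the top share. That summit lay 480 bp upstream of aco-2, in a coding exon of eef-1B.1 and 149 bp downstream of the start of eef-1B.1. The cytosolic gene aco-1 had 22.5 (percentile 35.7) and no peak in replicate 1. For aconitase and malate dehydrogenase the mitochondrial gene thus stood above the cytosolic one in the joint list, while for isocitrate dehydrogenase the cytosolic idh-1 stood above idh-2. Citrate synthase, cts-1, had 40.7 (percentile 72.5) and the fumarase gene fum-1 had 24.6 (percentile 39.4).

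In glycolysis only the first enzyme of the pathway had a bound gene with the reported windows. The gene pyk-1 was also bound with any overlap or with 2000 bp upstream, and gpd-4 with 2000 bp upstream. Hexokinase phosphorylates glucose on entry, and hxk-2 (WBGene00010416) had a signal of 104 in the list of both replicates, 56.7 in replicate 1 and 49.7 in replicate 2. The peak lay on chromosome I from 11323225 to 11323520 in intergenic sequence, 263 bp upstream of hxk-2 and 154 bp upstream of cdk-9, a cyclin-dependent kinase gene. It was the second-highest among the 44 genes and stood at rank 418 of the conservative list. The other hexokinase genes were lower, with 36.9 (percentile 64.8) at hxk-3 and 30.7 (percentile 51.5) at hxk-1.

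Phosphofructokinase, the main controlled step of glycolysis, was at the low end. The gene pfk-1.1 had a signal of 19.0 (percentile 30.8) in the list of both replicates, with 24.9 in replicate 1 and no peak in replicate 2. Its paralogue pfk-1.2 had no peak in the list of both replicates or in replicate 2, and 16.8 in replicate 1. The aldolase genes differed too, with 49.6 (percentile 85.0) at aldo-1 and 7.11 (percentile 22.9) at aldo-2. In replicate 1 aldo-1 stood in the top share, at percentile 95.7, and in replicate 2 it was at 89.0. The value at aldo-2 was the lowest signal of the 42 genes with a peak. In the joint list, the 3 cytosolic genes in the top share besides hxk-2 act in the lower part of glycolysis. They were gpd-2 for glyceraldehyde-3-phosphate dehydrogenase with 58.4 (percentile 92.1), pgk-1 for phosphoglycerate kinase with 59.8 (percentile 92.9) and enol-1 for enolase with 55.5 (percentile 90.4). In replicates 1 and 2 their percentiles were 83.1 and 89.7 at gpd-2, 87.1 and 94.3 at pgk-1, and 89.8 and 89.5 at enol-1. Of these, only pgk-1 reached the top share of a single replicate, replicate 2. The pgk-1 summit also fell in the window of hcp-4. Of the 31-base stretches under the pgk-1 peak, 44.4% occur elsewhere in the genome. The gpd-2 summit lay 841 bp upstream of its start, in a coding exon of mai-1 and 48 bp downstream of the start of that gene.

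The remaining gpd genes had lower signals, with 41.3 at gpd-3, 23.2 at gpd-4 and 19.8 at gpd-1, or percentiles 73.4, 37.1 and 31.9 in that order. They are close copies of one another: 74.4% of the 31-base stretches under the gpd-1 peak and 44.4% of those under the gpd-3 peak occur elsewhere in the genome, so signal at these genes may be shared between copies. No such stretch lies under the gpd-2 peak. The gpd-3 summit lay in a coding exon of the neighbouring gene gpd-2, 537 bp upstream of gpd-3. Pyruvate kinase ends glycolysis. Its gene pyk-1 had 50.5 (percentile 86.1) in the list of both replicates but percentile 96.6 in replicate 1, with a signal of 42.2, and 95.5 in replicate 2, with 35.6. The best peaks of the replicates lay at different places in the windows of its 5 starts, and replicate 1 had none within 100 bp of the joint summit. The second gene, pyk-2, had 41.5 (percentile 73.9). The remaining glycolysis genes ranged from percentile 30.5 at ipgm-1 to 82.4 at tpi-1.

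In gluconeogenesis the bound gene was pck-2 (WBGene00011232), 1 of the pair that encodes phosphoenolpyruvate carboxykinase, which draws oxaloacetate into sugar synthesis. Its signal was 77.5 in the list of both replicates, 38.3 in replicate 1 and 39.5 in replicate 2, at percentile 97.1. The peak, on chromosome I from 7868373 to 7868668, lay in an intron of pck-2, 575 bp upstream of 1 of its 5 starts, and also in the window of R11A5.6. It is the most repetitive of the 5 bound sites, with 77.8% of its 31-base stretches found elsewhere. The paralogue pck-1 had 46.3 (percentile 81.2). Fructose bisphosphatase, fbp-1, had 42.9 (percentile 76.0), icl-1 had 30.1 (percentile 50.2) and pyruvate carboxylase, pyc-1, had 24.9 (percentile 39.9).

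**Figure D3:**
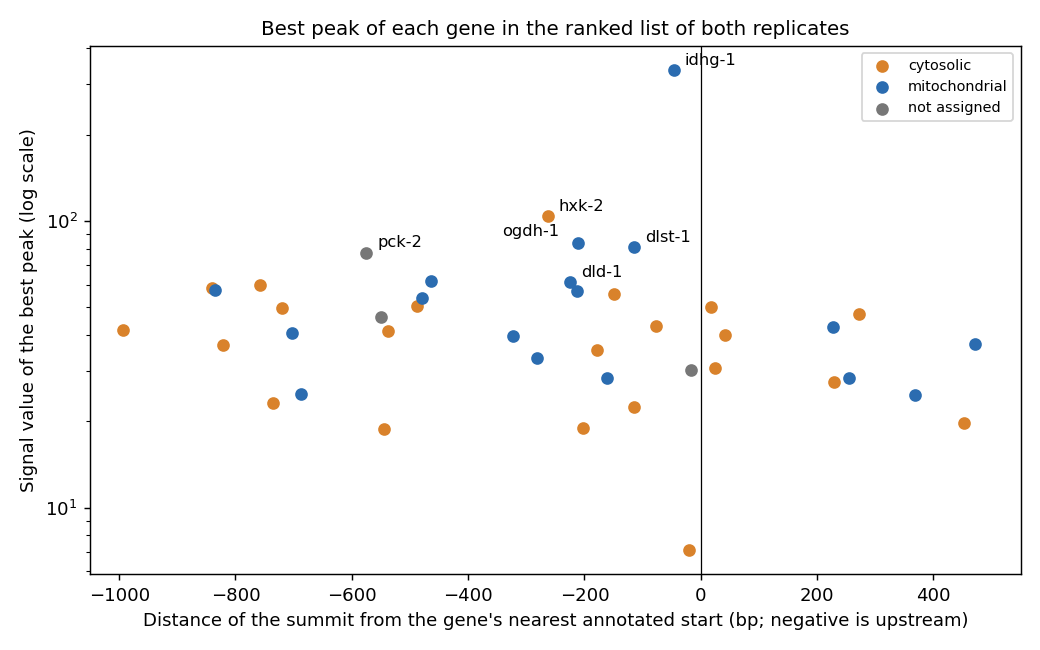
Signal value of the best peak of each gene in the ranked list of both replicates (vertical, log scale) against the distance of its summit from the nearest annotated start of that gene in bp (horizontal, negative upstream), for the 42 genes with a peak. The peak of idhg-1, at 336 and 46 bp upstream of the start, stands apart, and the other bound genes lie between 77.5 and 104, all upstream of a start.

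The 42 best peaks lay mostly upstream. A summit was upstream of the nearest start in 32 genes and at or downstream of it in 10, and those upstream lay 393 bp away at the median. The window reaches farther upstream than downstream, so an excess upstream is partly set by its shape. Only 18 summits lay within 250 bp of a start. By annotation of protein-coding genes, 20 summits were intergenic, 11 lay in coding exons, 9 in introns and 2 in untranslated regions. In 13 genes the summit also fell in the window of another protein-coding gene, including 3 of the 5 bound genes (hxk-2, idhg-1 and pck-2), so the peak cannot be assigned to 1 of them by position. None lay within 100 bp of a tRNA, snoRNA, snRNA or rRNA gene.

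The replicates placed these genes in a similar but loose order. Across the 44 genes the percentiles of replicate 1 and replicate 2 had a Pearson's r of 0.568 and a Spearman's rho of 0.666, against 0.449 for both measures across all 19973 genes. These are descriptions across genes, which are not independent replicates, and the genes with no peak in either list contribute to them. In the top 10% of both replicates were 7 of the 44 genes (15.9%), against 4.39% of all genes: the 5 bound genes, dld-1 and pyk-1. These were 2 of 23 cytosolic and 4 of 18 mitochondrial genes, and pck-2. For 15 of the 44 genes (34.1%) the best peaks of both replicates lay within 100 bp of the best peak of the joint list, against 16.3% of all genes. All 5 bound genes were among them, whereas dld-1 and pyk-1 were not. The conservative list keeps peaks by an IDR threshold, which concerns agreement between replicates. The agreement seen for the 5 bound genes thus follows in part from how they were called.

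**Figure D4:**
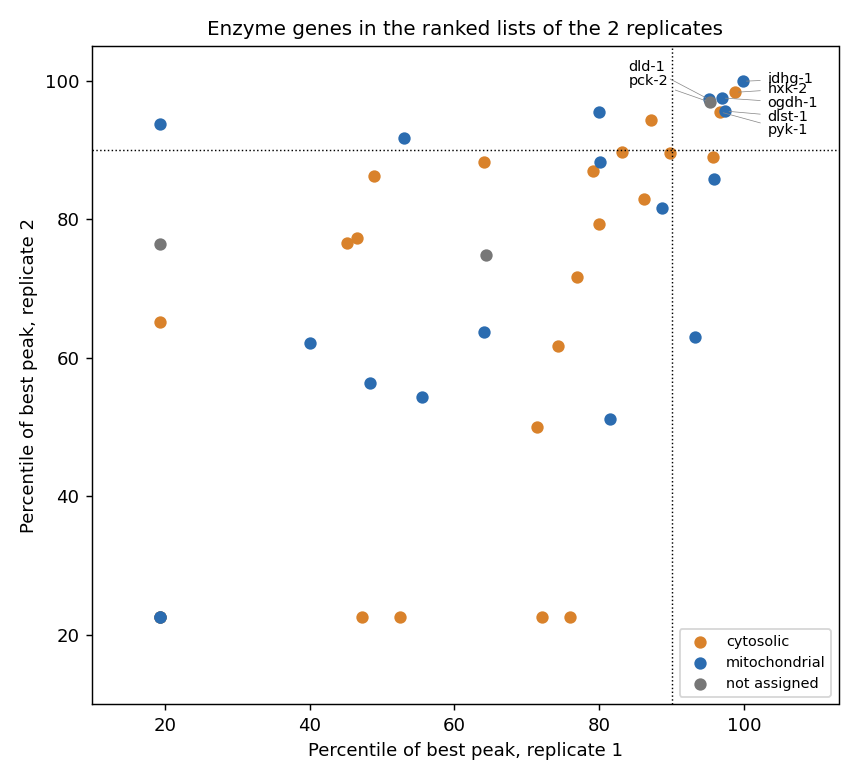
Percentile of the best peak of each of the 44 genes in replicate 1 (horizontal) and replicate 2 (vertical), coloured by compartment, with dotted lines at 90. The 7 genes in the upper right corner are named, and genes without a peak in a replicate line up at its lowest percentile, 19.3 in replicate 1 and 22.6 in replicate 2.

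Sequence features under the summits were described over the central 101 bases, on both strands. CCGCCC occurred at 2 of the 5 bound genes, idhg-1 and hxk-2, and at 4 of the 42 best peaks (9.52%), the others being idha-1 and mdh-1. It was present in 9.21% of the conservative peaks and in 3.52% of the best peaks of all protein-coding genes. The other form of the Krüppel box, CCACCC, occurred at 0 of the 42 best peaks, against 4.07% of conservative peaks and 2.75% of the best peaks of all genes. Its shorter core CACCC, which CCACCC contains, occurred at 3 of 42 (7.14%), against 14.2% of conservative peaks and 8.70% of all genes' best peaks. GCGCGC, which reads the same on both strands, occurred at 2 bound genes, hxk-2 and dlst-1, and at 4 of the 42 (9.52%), against 8.14% of conservative peaks and 2.01% of all genes' best peaks.

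A looser pattern, CCNCNCCC, was added after the sequences had been seen and occurred at dlst-1 and pgk-1, or 2 of the 42 (4.76%), against 7.95% of conservative peaks and 3.67% of all genes' best peaks. CGCGCA and GAGAGA were found at 1 of the 42 each. A bound gene had none of these motifs in 2 of the 5 cases, ogdh-1 and pck-2, which are also those with repeated sequence. A match is a string of letters and does not show a binding site.

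The median GC content of the central bases was 50.5% at the 5 bound genes, 46.5% at the 42 best peaks, 49.5% in the conservative list and 39.6% at the best peaks of all genes. At least 1 repeated 31-base stretch lay under 11 of the 42 best peaks (26.2%), against 48.7% of the conservative peaks and 21.3% of the best peaks of all genes. GC-rich motifs are more frequent where GC content is high, and how far the motif shares follow from it was not tested.

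A further list of 33 genes outside the 44 covered succinate dehydrogenase, which belongs to the TCA cycle itself, and neighbouring steps of carbon metabolism. These steps included the pentose phosphate pathway, pyruvate entry, shuttles, glycogen and propionate entry. Of the 33 genes, 31 matched a gene model. In that list 1 gene (3.23%) was bound, a share close to the 3.05% of all genes, and 5 (16.1%) stood in the top share against 10% of all genes, with a median percentile of 64.9, between the 72.9 of the 44 genes and the 50 of all genes. The bound gene was pdhk-2, which encodes the kinase that inactivates the pyruvate dehydrogenase complex. Its peak had a signal of 111, with 56.7 in replicate 1 and 55.2 in replicate 2, on III from 8741524 to 8741819 and 260 bp upstream of the start. The others in the top share were sdhd-1, a succinate dehydrogenase subunit, gsy-1, the glycogen synthase, ogdh-2, a second gene for the E1 component, and pccb-1, a propionyl-CoA carboxylase subunit. Their percentiles ran from 93.8 at gsy-1 to 95.0 at sdhd-1.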

How the data were processed

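The 2 samples are biological replicates of 1 group. Per the labels, all lists are in ce11 coordinates and were made by irreproducible discovery rate analysis. The authors deposited a ranked and a thresholded list for each replicate and for both together, each peak with a signal value and a −log10 global IDR. The signal value is not normalized between lists and was used only to rank peaks within a list. The name of the aligner or peak caller is not given in the sources used here. Read depth is unknown, and the control library was not analysed here.

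Summits were the deposited start plus offset. Windows used every protein-coding transcript start of Ensembl release 115, and sequence was read from WBcel235. The computing used Python 3.11.15, numpy 2.4.6, pandas 2.3.3 and matplotlib 3.10.9, and the window code was tested on simulated data. With 1 group there is nothing to test, so lists are described by counts and medians beside all genes. Named in the text are all bound genes, those in the top share, the next 3 below it, paralogous pairs and genes without a peak in a ranked list. A further 8 genes were named after their values were seen, to complete the steps of a pathway.

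The genes, lists and compartments were chosen with earlier results of these data known. Alternatives were another window, any overlap of at least 1 bp, the other list, the upper part of the conservative list, no peaks within 100 bp of small-RNA genes, each replicate alone and other compartment classes. A single window per gene and the removal of repeated sequence were added after seeing the data.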

Additional observations from a re-analysis of the deposited data

How the results depend on the processing

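Of 74 recomputed values, 46 were called the same and 28 moved. A count was called the same if its ratio to the reported count was at most 1.5 in either direction. A median was called the same if it moved by less than the standard deviation of the 2 single-replicate medians. Bound mitochondrial genes fell from 3 to 2 with a single window and without repeats, and under this rule were still called the same. The number of bound genes, 5 in the report, was 8 with 2000 bp upstream, which adds gpd-4, pyk-1 and idh-1 (4.12% of all genes bound). It was 2 among peaks at or above the median signal, hxk-2 and idhg-1 (1.83% of all genes). It was 3 with a single window at the outermost start (2.72%), and 3 without peaks in repeated sequence (2.14%). Both of these lost ogdh-1 and pck-2. Replicate 1 alone gave 1 (1.29% of all genes) and replicate 2 alone gave 2 (1.52%). Bound cytosolic genes, 1 in the report, were 4 with 2000 bp. They were 2 with any overlap (hxk-2 and pyk-1), a setting in which 3.26% of all genes were bound. They were 2 with pck-2 as cytosolic and 0 in each replicate alone. Bound mitochondrial genes, 3 in the report, were 1 among the upper peaks and 1 to 2 in each replicate.

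The median percentile of all 44 genes was 70.36 with 500 bp upstream to 100 bp downstream, and 75.12 to 78.27 in single replicates. For cytosolic genes it was 65.48 with that shorter window, 68.54 with 2000 bp, 68.12 without fum-1 and idh-1, 63.71 with a single window, 64.39 without repeats and 74.32 to 77.27 in single replicates. For mitochondrial genes it was 76.88 with the shorter window, 84.17 with 2000 bp, 70.89 with any overlap, 77.48 without repeats and 80.02 to 83.70 in single replicates. Cytosolic minus mitochondrial medians thus ran from -15.64 to 0.90 points. The cause of these moves was not tested. Between 10 and 12 of the 44 genes were in the top 10% under every alternative tried for that count. With 2 replicates and unstated depth, weak peaks cannot be told from background.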
